A study of Rattus norvegicus with 24 samples.

Results

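Splicing factor and RNA-binding protein genes were followed in rat skin explants exposed to allogeneic or syngeneic lymphocytes. The genes were taken by a rule on their names, which was set with earlier results of these data known. A probe was taken when the gene name in the scanner files began with that of an SR protein, an hnRNP, a Clk kinase, an L cyclin, an snRNP or spliceosome protein, a DEAD-box helicase or an RNA-binding protein of the Rbm, Rnpc, Khdrbs or Elavl families, and when the study had not listed it with its MHC or NKC probes. This gave 29 probes for 27 genes, of 8453 probes for 7221 genes on the array, and all 27 genes were measured in every rat. The pattern for the Rbm family also took *Rbms1* and *Rbms2*. Names are those of the scanner files, which are old. *Sfrs5* and *Sfrs2* are now *Srsf5* and *Srsf2*, *Hnrpab*, *Hnrpd* and *Hnrpm* are written with the prefix Hnrnp, *Rnpc2* is now *Rbm39*, *Rbm9* is *Rbfox2*, *Rbm16* is *Scaf8* and *Ddx19* is *Ddx19a*.

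Paw skin of 12 male BN rats aged 15 weeks was cut into explants, and 2 explants of each rat were compared. For 3 days one of them was kept with syngeneic BN lymphocytes and the other with allogeneic PVG lymphocytes, both harvested from a 7-day mixed lymphocyte reaction with stimulator cells irradiated at 25 Gy. The rat strains are inbred, the model has no blood supply, and an explant still holds its own skin leukocytes beside any added lymphocytes that stayed. Per the study, added lymphocytes that had not infiltrated or attached were washed off before freezing, and infiltrating ones were rarely seen by histology. RNA of both explants was hybridized together to a two-color array, once in each dye orientation, so that 24 arrays on 3 slides gave 1 value for each of 12 rats. A difference in a tissue sample cannot tell fewer cells of a type from less RNA per cell.

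Introns are removed from pre-mRNA by the spliceosome, whose core particles are snRNPs built on Sm proteins. SR proteins bind exons and recruit the spliceosome, hnRNPs often oppose them, and Clk kinases phosphorylate SR proteins and release them from nuclear speckles. L cyclins are partners of a kinase of the same speckles. Many of these genes, *Clk1* and the SR protein genes among them, regulate the splicing of their own transcripts, so that an array probe reads only the part of the transcript it was made for.

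Rat 8 stood apart from the other rats, and the counts of called genes and the tested means below are given with and without it. The direction of all ratios and the names of the explants follow the dyes in the labels, and this direction is opposite to that of the study's own tables. Across all genes the log2 ratio of allogeneic over syngeneic explant had an SD of 0.705 in rat 8 and of 0.199 to 0.354 in the other 11 rats. In rat 8, 611 genes (8.46% of all genes) lay more than 1 log2 unit above every other rat, against 0 to 7 genes in any other rat, and 0 genes lay as far below. Its ratios had a correlation of 0.214 with the mean of the other rats, the lowest of the 12. Both of its arrays gave the same ratios, with a correlation of 0.944 across probes, the highest of the 12. Its syngeneic sample had the lowest median signal of all 24 arrays in each dye, with 135 in Cy3 and 269 in Cy5. Array 1 of rat 10 stood apart by its brightness, with medians of 6668 in Cy3 and 25642 in Cy5 against 135 to 216 and 269 to 415 on the other arrays. The part that either sample played in the ratios was not tested.

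The 4 leading genes are *Ccnl1*, *Clk1*, *Sfrs5* and *Rnpc2*, those of the 27 genes with the highest ratios in rat 8. Their probes and those of *Hnrpab*, which disagreed, are shown because they define what was measured. Each line gives the first 30 of the 60 bases, 5′ to 3′, with G and C in capitals. The positions of the whole probes are those of the scanner files, whose header names build rn3. Exons and UTRs were not assigned, as no annotation of that build was used here.
Ccnl1 (chr2:155707477-155707536, minus strand): GaaaaCCatGGtCaGGttCaattGtaCttt
Clk1 (chr9:57217870-57217929, minus strand): taGCtttGtaCaCtGatGttttaGaGGCtt
Sfrs5 (chr6:104736302-104736361, plus strand): GaGCtCtaaatttGCttGtatataaaaGCt
Rnpc2, A_43_P18769 (chr3:146461049-146461082, minus strand): tGtttaatCCtCaaaCaGaaGaaGaattGG
Rnpc2, A_44_P136911 (chr3:146460822-146460881, minus strand): ttCaGCaaaGGtttCCaGaataCaCttttG
Hnrpab, A_44_P106037 (chr10:37117825-37117884, minus strand): aaattGtaCCCtaatGatGaaGaCatCCaC
Hnrpab, A_44_P109650 (chr10:37118340-37118399, minus strand): tGattttGCCaCGaCCtGGatattGaaGCt
The header interval of the first *Rnpc2* probe is shorter than the probe. The G and C share of the whole probes was 28.3% for *Ccnl1*, 38.3% for *Clk1*, 35% for *Sfrs5*, 35% and 38.3% for *Rnpc2*, and 43.3% and 38.3% for *Hnrpab*, beside a median of 45% over all 8453 probes.

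Among the 12 rats, 2 of 27 genes (7.41%) were called by limma at an adjusted p below 0.05, where 16.3% of all genes were called. One was higher in the samples labelled allogeneic and one was lower, where 8.67% and 7.6% of all genes were called in these directions. The cold-inducible RNA-binding protein gene *Rbm3* was higher, and *Rbm9*, which encodes a splicing regulator of the Fox family, was lower. The median log2 ratio was 0.05 over the 27 genes and 0.01 over all genes. None of the 27 genes had the same sign in 12 rats, which 5.9% of all genes had. Without rat 8, 3 of 27 genes (11.1%) were called, where 24.2% of all genes were, and the median over the 27 genes was -0.03. They were *Rbm3* and the helicase gene *Ddx19*, which were higher, and *Sfrs5*, which was lower. Only *Rbm3* was called both with and without rat 8. Without rat 8, 12.8% of all genes were called higher and 11.4% lower. In either case the share was below that of all genes, but it rests on 2 and 3 genes, and the difference was not tested.

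**Figure D1:**
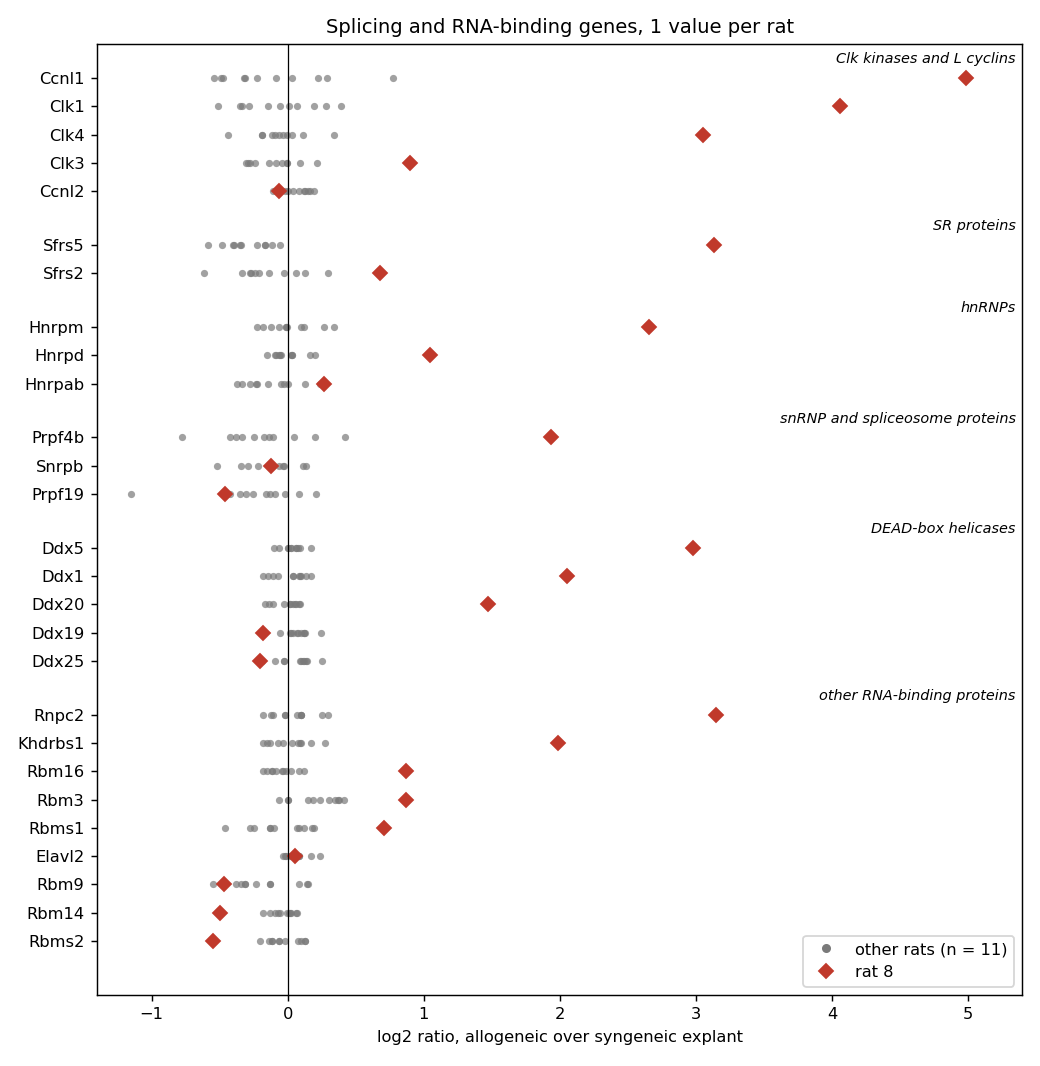
Log2 ratio of the allogeneic over the syngeneic explant for 27 genes, grouped by role, with 1 point per rat (diamonds for rat 8 and circles for the other 11 rats). In rat 8, 12 of 27 genes (44.4%) exceed 1, where 11.5% of all genes do, and *Ccnl1* reaches 4.98. For the 27 genes the other rats stay between -1.15 and 0.77.

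*Ccnl1*, which encodes cyclin L1, had the highest value of all 27 genes in rat 8. Its log2 ratio ranged from -0.54 to 4.98 with a median of -0.16 in 12 rats. The lowest value was that of rat 10, which joins -0.79 on its bright array 1 and -0.30 on its array 2. All rats but rat 8 lay at or below 0.77, and 7 of 12 rats were below 0. The mean was 0.32 ± 1.52 (SD, n = 12 rats, limma adjusted p = 0.657). Without rat 8 it was -0.10 ± 0.40 (SD, n = 11 rats, limma adjusted p = 0.548), so that the sign of the mean rested on rat 8.

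*Clk1*, the kinase that gives the Clk family its name, was likewise highest in rat 8 and lowest in rat 10. Its ratio ranged from -0.51 to 4.06 with a median of -0.02, and 6 of 12 rats were above 0. The value of rat 10 joins -0.88 on its bright array 1 and -0.14 on its array 2. Outside rat 8 no rat exceeded 0.39. The mean of 0.28 ± 1.22 (SD, n = 12 rats, limma adjusted p = 0.628) became -0.07 ± 0.29 (SD, n = 11 rats, limma adjusted p = 0.597) without rat 8. Of the other kinases, *Clk4* had 3.05 in rat 8 and -0.44 to 0.34 elsewhere, and *Clk3* had 0.90 in rat 8 and -0.30 to 0.22 elsewhere. *Ccnl2*, the gene of the second L cyclin, did not share this. Its ratio was -0.07 in rat 8, inside the range of -0.10 to 0.19 in the other rats. None of these 5 genes was called with or without rat 8.

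*Sfrs5*, which encodes an SR protein with RNA recognition motifs, differed between rat 8 and all other rats. Its ratio was below 0 in all of the other 11 rats, from -0.59 to -0.05 with a median of -0.35, and was 3.13 in rat 8. There was no overlap between rat 8 and the rest. Over 12 rats the mean was -0.01 ± 1.00 (SD, n = 12 rats, limma adjusted p = 0.981). Without rat 8 the mean was -0.30 ± 0.17 (SD, n = 11 rats, limma adjusted p = 7.53e-04), a level 1.23-fold lower in the samples labelled allogeneic. It was the only one of the 27 genes with 1 sign in all 11 rats, which 8.17% of all genes had. In these 11 rats it was lower on 9 of 11 arrays with the allogeneic sample in Cy5 and on 11 of 11 with it in Cy3. The means of the slides without rat 8 were -0.37, -0.38 and -0.17. With array 1 of rat 10 left out as well, the mean was -0.29 (limma adjusted p = 0.00131). *Sfrs2*, the gene of the SR protein SC35, had 0.68 in rat 8. In the other rats it ranged from -0.62 to 0.29 with a median of -0.21, and its mean of -0.15 ± 0.25 (SD, n = 11 rats) was not called (limma adjusted p = 0.147). Over 12 rats the mean was -0.08 ± 0.34 (limma adjusted p = 0.617).

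The hnRNP genes were not called. *Hnrpm*, whose protein binds GU-rich sequences, had 2.65 in rat 8 and -0.22 to 0.34 elsewhere. Its mean was 0.24 ± 0.78 (SD, n = 12 rats, limma adjusted p = 0.50) with rat 8 and 0.02 ± 0.18 (SD, n = 11 rats, limma adjusted p = 0.826) without it. *Hnrpd*, also known as AUF1, which binds AU-rich elements, had 1.04 in rat 8 and -0.15 to 0.20 elsewhere. *Hnrpab* had a mean of -0.09 ± 0.22 (SD, n = 12 rats, limma adjusted p = 0.376) and of -0.12 ± 0.19 (SD, n = 11 rats, limma adjusted p = 0.141) without rat 8, but its probes disagreed in rat 8. There the probe A_44_P109650 gave 1.01 and the probe A_44_P106037 gave -0.47. The second probe lay between -0.14 and 0.08 in the other rats, the first between -0.72 and 0.44.

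None of the genes of the snRNP and the spliceosome was called, with or without rat 8 (limma). *Snrpb*, which encodes the core protein SmB, ranged from -0.52 to 0.13 with a median of -0.12, and 10 of 12 rats were below 0. The mean of -0.14 ± 0.19 (SD, n = 12 rats) was not called (limma adjusted p = 0.0958), nor was that of -0.14 ± 0.20 without rat 8 (limma adjusted p = 0.0892). *Prpf19*, the gene of a ubiquitin ligase of the activated spliceosome, ranged from -1.15 to 0.21 with a median of -0.21, and again 10 of 12 rats were below 0. Its mean was -0.26 ± 0.35 (SD, n = 12 rats, limma adjusted p = 0.0887) and -0.24 ± 0.36 (SD, n = 11 rats, limma adjusted p = 0.104) without rat 8. It depended on the dye, with -0.69 where the allogeneic sample was in Cy5 and 0.18 where it was in Cy3. Neither gene was high in rat 8, with -0.12 and -0.46. *Prpf4b*, the gene of a kinase of spliceosome proteins, had 1.93 in rat 8 and -0.78 to 0.42 elsewhere.

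The helicase genes fell into those that were high in rat 8 and those that were not. *Ddx5*, the gene of the helicase p68, lay between -0.10 and 0.17 in the other rats and had 2.98 in rat 8. Its mean was 0.28 ± 0.85 (SD, n = 12 rats, limma adjusted p = 0.472) and 0.03 ± 0.07 (SD, n = 11 rats, limma adjusted p = 0.357) without rat 8. *Ddx1*, a helicase gene with a role in tRNA ligation, had 2.05 in rat 8 and -0.18 to 0.17 elsewhere, with means of 0.18 ± 0.60 (SD, n = 12 rats, limma adjusted p = 0.499) and 0.01 ± 0.12 (SD, n = 11 rats, limma adjusted p = 0.806). *Ddx20*, whose product belongs to the SMN complex that assembles snRNPs, had 1.47 in rat 8 and -0.17 to 0.09 elsewhere. *Ddx19*, the gene of a helicase of mRNA export, had its lowest value in rat 8, with -0.18. In the other rats it ranged from -0.06 to 0.25 with a median of 0.08 and was above 0 in 10 of 11. Without rat 8 its mean of 0.08 ± 0.08 (SD, n = 11 rats) was called (limma adjusted p = 0.0271), and with rat 8 the mean of 0.06 ± 0.11 (SD, n = 12 rats) was not (limma adjusted p = 0.221). *Ddx25*, a helicase gene known from testis, had -0.21 in rat 8, also its lowest value.

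Of the other RNA-binding proteins, *Rbm3* was called in both cases. Its ratio ranged from -0.06 to 0.87 with a median of 0.27, and 10 of 12 rats were above 0. Rat 8 had the highest value, and the next was 0.41. The mean was 0.27 ± 0.25 (SD, n = 12 rats, limma adjusted p = 0.0180), which is 1.20-fold, and 0.21 ± 0.17 (SD, n = 11 rats, limma adjusted p = 0.00695) without rat 8. The means of both dye orientations were close, with 0.30 and 0.24. *Rbm9* ranged from -0.55 to 0.15 with a median of -0.27, and 9 of 12 rats were below 0. Its mean was -0.21 ± 0.23 (SD, n = 12 rats, limma adjusted p = 0.0426), a 1.16-fold lower level. Without rat 8 it was -0.18 ± 0.23 (SD, n = 11 rats, limma adjusted p = 0.0530) and was not called. The call was lost in 17 of 27 alternatives, among them the mixed-effects ANOVA (adjusted p = 0.0610), a replicate block by rat (0.0565), the signed-rank test (0.0881), processed signals (0.0688) and median centring (0.0628). The 17 include leaving out any one of rats 2, 4, 5, 7, 8, 9, 10, 11 and 12, with means of -0.18 to -0.22 in these cases and the highest adjusted p, 0.0883, without rat 9. The mean was -0.01 on arrays with the allogeneic sample in Cy5 and -0.40 on arrays with it in Cy3.

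*Rnpc2*, which encodes a splicing factor and coactivator of nuclear receptors, ranged from -0.18 to 3.15 with a median of 0.08, and 7 of 12 rats were above 0. The mean was 0.30 ± 0.91 (SD, n = 12 rats, limma adjusted p = 0.462) and 0.04 ± 0.15 (SD, n = 11 rats, limma adjusted p = 0.530) without rat 8. Its probes differed. The probe A_44_P136911 was above 0 in 12 of 12 rats, from 0.05 to 0.31 outside rat 8 and 3.62 in rat 8. Without rat 8 its mean was 0.15 (limma over probes, adjusted p = 0.00136), whereas the probe A_43_P18769 had a mean of -0.07 (adjusted p = 0.535). Over 12 rats these means were 0.44 (adjusted p = 0.312) and 0.16 (adjusted p = 0.677). *Khdrbs1*, the gene of Sam68, had 1.98 in rat 8 and -0.18 to 0.27 elsewhere. In rat 8 the ratio was 0.87 for *Rbm16*, whose product binds RNA polymerase II, and 0.71 for *Rbms1*. The values were -0.49 for *Rbm14* and -0.55 for *Rbms2*, below those of the other 11 rats. *Elavl2*, the gene of a neuronal Hu protein, had 0.06 in rat 8, inside the range of -0.03 to 0.23 of the other rats. By probes, 2 of 29 were called with rat 8 and 4 of 29 without it, where 17.3% and 24.7% of all probes were called.

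**Figure D2:**
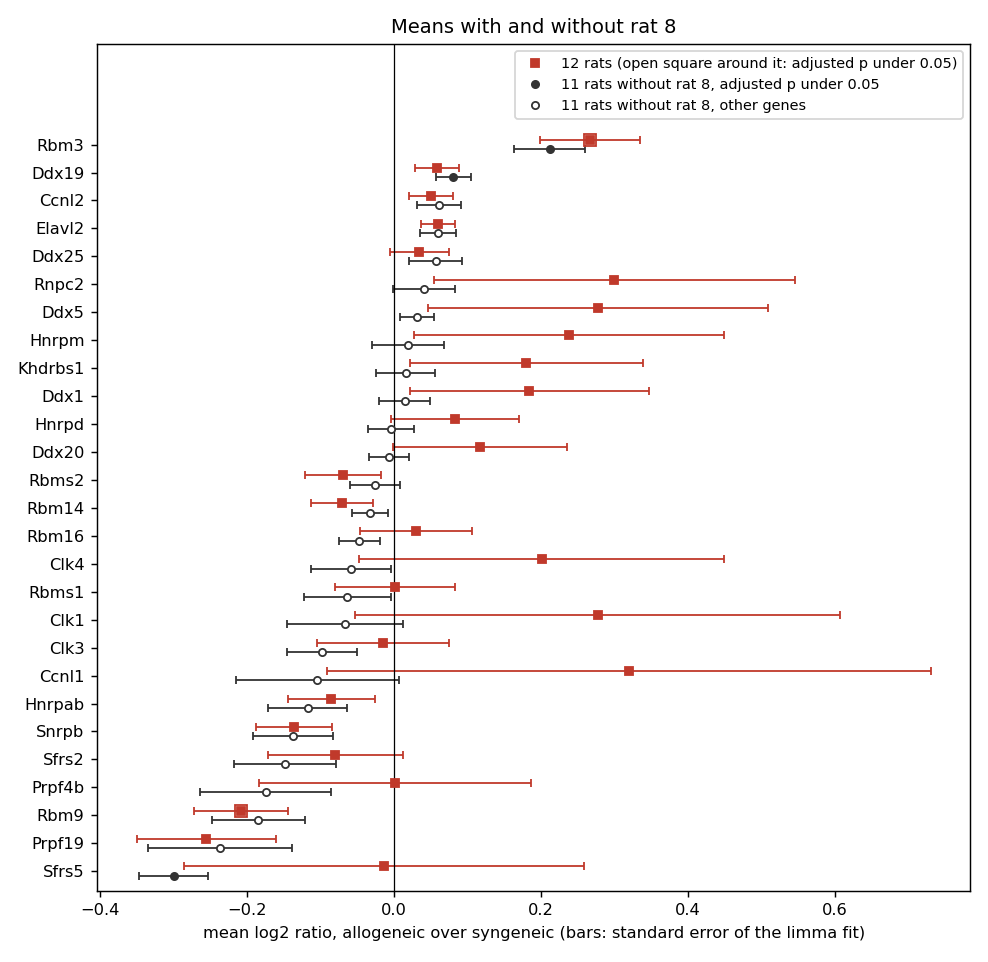
Mean log2 ratio of the 27 genes over 12 rats (squares) and over the 11 rats without rat 8 (circles), with the standard error of the limma fit. *Ccnl1* moves from 0.32 to -0.10 and *Sfrs5* from -0.01 to -0.30 when rat 8 is left out, whereas *Rbm3* stays at 0.27 and 0.21.

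In rat 8, the ratios of the 4 leading genes were close in both dye orientations. *Ccnl1* had 5.19 with the allogeneic sample in Cy5 and 4.78 with it in Cy3. *Clk1* had 4.11 and 4.00, *Sfrs5* had 3.11 and 3.15, and *Rnpc2* had 2.94 and 3.36. In rat 8 these ratios correspond to 31.6-fold, 16.7-fold, 8.78-fold and 8.85-fold. Arrays of rat 8 differed more for *Prpf19*, with -0.83 and -0.09. In all, 3 of 27 genes, *Ccnl2*, *Elavl2* and *Snrpb*, had opposite signs on the 2 arrays. The value of rat 8 was the highest of the 12 rats for 18 of 27 genes (66.7%), where it was the highest for 31.4% of all genes. *Hnrpab* is among the 18 with 0.27, the mean of 2 probes that gave 1.01 and -0.47 in rat 8. The value of rat 8 was more than 1 above every other rat for 11 of 27 genes (40.7%), beside 8.46% of all genes. These shares describe 1 animal, and no test was made of them.

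**Figure D3:**
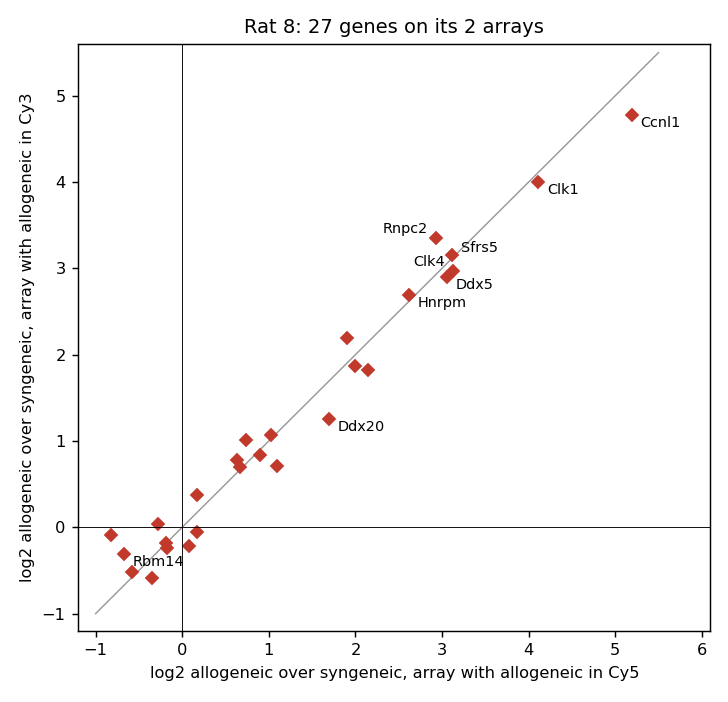
Log2 ratio of 27 genes on the arrays of rat 8, with the allogeneic sample in Cy5 (x axis) and in Cy3 (y axis). The 4 leading genes lie near the line of equality, up to 5.19 and 4.78 for *Ccnl1*, whereas *Prpf19* lies at -0.83 and -0.09.

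The levels of each explant were compared next, as normalized log2 signals that can be set against each other for 1 gene but not between genes. For these levels, rat 10 was represented by its array 2. The syngeneic explant of rat 8 gave a *Ccnl1* level of 9.1, where those of the other rats lay between 13.24 and 14.14. The allogeneic explant of rat 8 had 14.08, within the range of 13.40 to 14.40 of the others. *Clk1* had a level of 10.77 in the syngeneic explant of rat 8 against 13.98 to 14.60, and 14.83 in the allogeneic one against 14.05 to 14.64. *Sfrs5* had 10.29 against 13.03 to 13.70 in syngeneic explants and 13.42 against 12.73 to 13.34 in allogeneic ones. *Rnpc2* had 8.46 against 11.02 to 11.44 in syngeneic explants, and *Ddx5* had 11.60 against 14.26 to 14.61. Thus the distance of rat 8 from the other rats was greater in its syngeneic than in its allogeneic explant for these 5 genes. The syngeneic level of rat 8 was below that of every other rat for 18 of 27 genes (66.7%), where this held for 26.6% of all genes. Its allogeneic level was above that of every other rat for 9 of 27 genes (33.3%), beside 26.8% of all genes. With both arrays of rat 10 the counts were 11 and 8 of 27 genes. No share of all genes was computed for that setting, so these counts have no background beside them. With the sign turned to the direction of the study's tables the explants of rat 8 exchange their names, so that the low levels of 18 genes would be those of the allogeneic explant, the high levels of 9 genes those of the syngeneic one, and the ratio of rat 8 would be the lowest of the 12 rats for 18 genes.

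**Figure D4:**
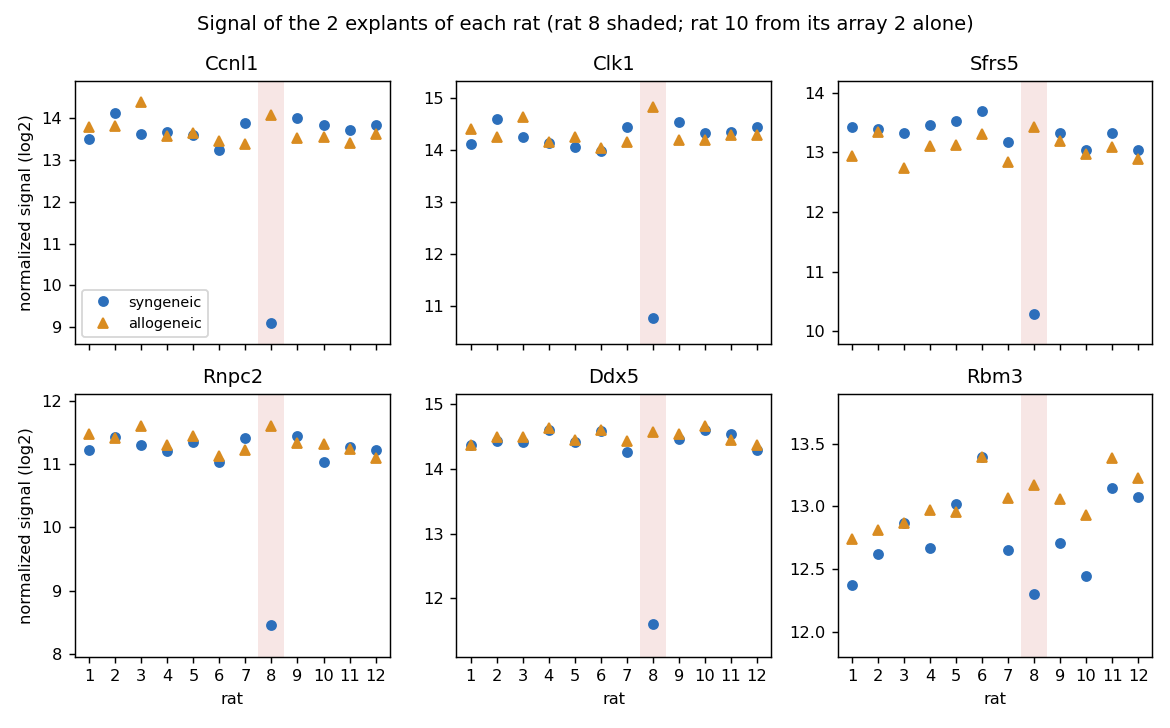
Normalized log2 signal of the syngeneic (circles) and the allogeneic (triangles) explant of each of 12 rats for 6 genes, with rat 8 shaded and rat 10 taken from its array 2. The syngeneic point of rat 8 lies below all others in each panel, at 9.1 for *Ccnl1* and 10.77 for *Clk1*, and only slightly below them for *Rbm3*, at 12.30.

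Other values moved with rat 8. Across probes its ratio had a correlation of -0.278 with the G and C share of the probe and 0.328 with the mean signal, and in rats other than 8 and 10 these correlations lay between -0.020 and 0.069 and between -0.032 and 0.045. Rat 10 had -0.182 and -0.284. Probes are not independent replicates. The 14 probes of splicing genes with more than 1 in rat 8 had a median G and C share of 38.3% (28.3% to 45%). The 6 probes from 0 to 1 had 35% (26.7% to 45%), and the 9 probes below 0 had 43.3% (38.3% to 53.3%). The mean log2 ratio of 4 keratinocyte markers was 1.78 in rat 8 and -0.09 to 0.65 in the other rats, and that of 3 fibroblast markers was 1.60 against 0.08 to 0.95. The mean of 15 immediate-early genes was 0.18 against -0.40 to 0.01. For 12 T cell, 8 NK cell, 5 B cell, 9 macrophage and 2 skeletal muscle markers the mean of rat 8 lay inside the range of the other rats. Their part in the values of the splicing genes was not tested.

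The same marker lists also differed between the groups over 12 rats, and this is given beside the calls of *Rbm3* and *Rbm9*. Higher and lower follow the dye labels here too, and in the direction of the study's tables they change places. The study reported *Fcgr3a*, *Trem2*, *Ctss* and *Gzmc*, which are among the lower markers here, as up-regulated in allogeneic explants. By quantitative PCR it also found *Aif1*, another of them, and the T cell gene *Cd3z* up-regulated. Macrophage markers were lower for 6 of 9 genes, T cell markers for 5 of 12 and NK cell markers for 4 of 8, with none higher, where 7.6% of all genes were lower. Keratinocyte markers were higher for 2 of 4 genes and fibroblast markers for 2 of 3, with none lower, where 8.67% of all genes were higher. B cell and skeletal muscle markers were called for 0 of 5 and 0 of 2 (limma), with 1 and 0 at an unadjusted p below 0.05. Of 15 immediate-early genes, 2 were higher and 5 lower. Without rat 8, where 12.8% of all genes were higher and 11.4% lower, the lower markers numbered 7 for macrophages, 5 for T cells and 5 for NK cells, the higher ones 2 for keratinocytes and 3 for fibroblasts, and of the immediate-early genes 1 was higher and 7 were lower. Keratinocyte and fibroblast markers, which define the labelled tissue, were detected, but only 4 of 17 and 3 of 8 listed genes were on the array. Whether the marker lists account for the differences of *Rbm3*, *Rbm9* and *Sfrs5* was not tested.

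The 4 leading genes were then compared with each other across rats. Over 12 rats, Pearson's r was between 0.922 and 0.995 for the 6 pairs, but rat 8 forms a cluster of its own, and these values are not a measure of the relation. In the 11 rats without it, *Ccnl1* and *Clk1* varied together, with r = 0.922 and Spearman's rho = 0.955 (permutation p adjusted over 6 pairs, 6e-05 and 1.2e-04). Without rats 1 and 3 also, r was 0.882, and within the slides it was 0.936, 0.875 and 0.905 with 4, 3 and 4 rats. *Rnpc2* rose and fell with *Clk1* (r = 0.749, rho = 0.755, permutation p adjusted 0.0106 and 0.00995) and *Ccnl1* (r = 0.837, rho = 0.80, permutation p adjusted 0.00152 and 0.00836), but not on slide 3, where r was -0.486 and -0.584. Without the 2 rats farthest from the median, r was 0.866 and 0.619.

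*Sfrs5* varied in the opposite direction. In the 11 rats its r was -0.870 with *Clk1* (rho = -0.900), -0.840 with *Ccnl1* (rho = -0.791) and -0.723 with *Rnpc2* (rho = -0.773). The permutation p adjusted over 6 pairs was 0.00152, 0.00152 and 0.0130 for r and 0.0012, 0.00836 and 0.00838 for rho. Without the 2 rats farthest from the median these r were -0.835, -0.645 and -0.643. The r with *Clk1* was negative within each slide, at -0.994, -0.997 and -0.576. With *Ccnl1* it was -0.920, -0.911 and -0.414, and with *Rnpc2* -0.972, -0.985 and -0.432. Rat 3 had the highest ratio of *Ccnl1* and *Clk1* among the 11 rats and the lowest of *Sfrs5*. Over 12 rats, by contrast, r between *Sfrs5* and the other 3 genes was positive, at 0.922 to 0.957, with rat 8 high for all 4. The values of a rat come from the same arrays, and the part that shared measurement has in these relations was not tested.

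**Figure D5:**
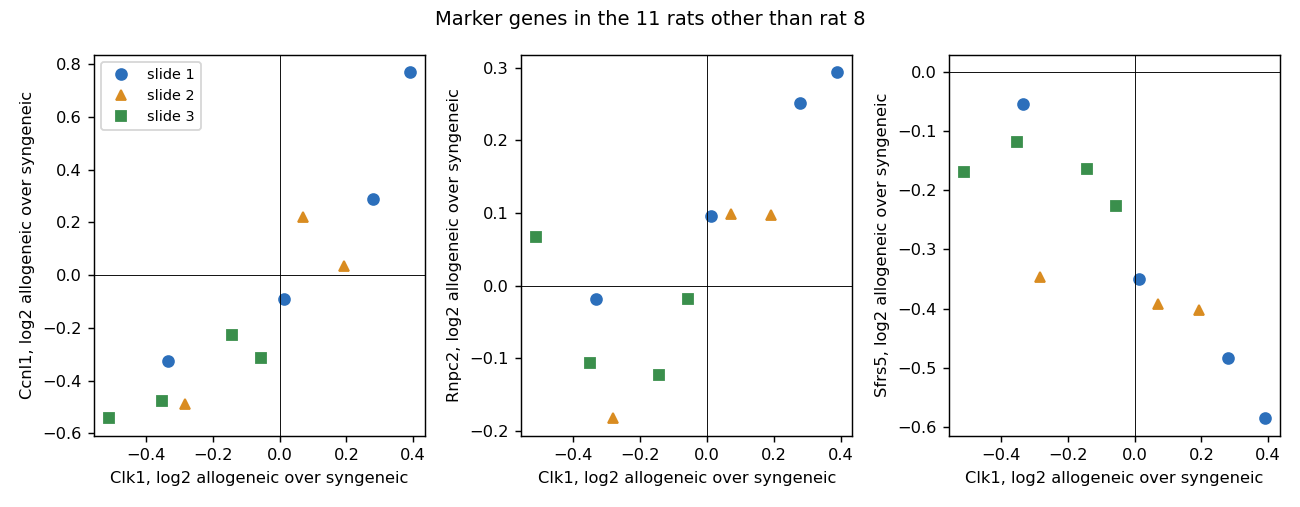
Log2 ratios of *Ccnl1*, *Rnpc2* and *Sfrs5* against that of *Clk1* in the 11 rats without rat 8, with symbols for the 3 slides. *Ccnl1* rises with *Clk1* (r = 0.922), and *Sfrs5* falls with it (r = -0.870) and is below 0 in all 11 rats.

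The promoters of the 4 leading genes are shown next. In rat 8 each of these genes had its highest ratio of the 12 rats, which held for 18 of the 27 genes. In the other rats *Sfrs5* moved against the rest of them. Each line gives the 150 bases before the transcription start in RefSeq, build GRCr8, 5′ to 3′ on the strand of the gene. Capitals mark TGACG or its reverse CGTCA, the core of the cAMP response element TGACGTCA, which contains both.
Ccnl1 (chr2:152507469-152507618, minus strand): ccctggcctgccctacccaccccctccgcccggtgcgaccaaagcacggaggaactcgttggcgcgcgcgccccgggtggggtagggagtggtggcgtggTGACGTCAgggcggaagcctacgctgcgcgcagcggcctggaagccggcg
Clk1 (chr9:67453181-67453330, minus strand): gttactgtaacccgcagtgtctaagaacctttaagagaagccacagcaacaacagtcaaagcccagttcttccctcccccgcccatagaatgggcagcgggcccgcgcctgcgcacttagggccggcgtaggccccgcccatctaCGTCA
Sfrs5 (chr6:106336606-106336755, plus strand): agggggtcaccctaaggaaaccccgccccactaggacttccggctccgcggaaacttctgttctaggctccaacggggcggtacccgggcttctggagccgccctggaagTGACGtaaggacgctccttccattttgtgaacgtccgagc
Rnpc2 (chr3:165156236-165156385, minus strand): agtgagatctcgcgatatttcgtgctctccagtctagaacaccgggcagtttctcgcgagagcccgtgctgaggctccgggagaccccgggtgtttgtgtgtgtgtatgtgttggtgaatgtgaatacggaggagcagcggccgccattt
*Ccnl1* held the whole element, *Clk1* and *Sfrs5* held the core, and the window of *Rnpc2* held neither. RefSeq promoters were found for 25 of 27 genes, in 26 entries because *Clk4* had 2. In the 250 bases before the start, on both strands, TGACG was found in 8 of 26 entries (30.8%) and in 18.2% of all 33469 promoters. TGACGTCA was found in 3 of 26 (11.5%), those of *Ccnl1*, *Clk4* and *Ddx19*, and in 1.59% of all. The CCAAT box was found in 16 of 26 (61.5%) and in 34% of all, and TATAAA in 5 of 26 (19.2%) and in 12.9% of all. Of the genes with the core, rat 8 had 4.98 for *Ccnl1*, 4.06 for *Clk1*, 3.13 for *Sfrs5* and 3.05 for *Clk4*. It had 0.87 for *Rbm3*, -0.07 for *Ccnl2*, -0.18 for *Ddx19* and -0.49 for *Rbm14*. Genes without the core also lay on both sides, such as *Rnpc2* with 3.15 and *Prpf19* with -0.46. The part of the core in these values was not tested. A match is a description of the sequence and not a binding site.

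Further genes of splicing and RNA binding whose names the rule does not take were found for 44 names of a written list. Of these, 4 (9.09%) were called over 12 rats, 3 higher and 1 lower, where 16.3% of all genes were called. *Zfp36l2*, a gene of an mRNA decay factor, ranged from -0.33 to 0.66 with a median of 0.34 and had a mean of 0.30 ± 0.25 (SD, n = 12 rats, limma adjusted p = 0.00831). It was -0.09 on arrays with the allogeneic sample in Cy5 alone, and the call was also lost under a replicate block by rat (adjusted p = 0.103) and under median centring (adjusted p = 0.0901). *Nol3*, which encodes an inhibitor of apoptosis also named as a nucleolar splicing protein, had a mean of 0.26 ± 0.21 (SD, n = 12 rats, limma adjusted p = 0.00858). *Ybx3*, the gene of a cold-shock domain protein, had 0.26 ± 0.24 (SD, n = 12 rats, limma adjusted p = 0.0177), which was not called under median centring (0.11, adjusted p = 0.395). *Zfp36*, which encodes tristetraprolin, a protein that destabilizes cytokine mRNA, was lower in 11 of 12 rats, from -0.96 to 0.37 with a median of -0.55 and a mean of -0.44 ± 0.42 (SD, n = 12 rats, limma adjusted p = 0.0191). In 1 dye orientation alone the call was lost for *Nol3* (allogeneic in Cy3, adjusted p = 0.139), *Ybx3* (allogeneic in Cy5, adjusted p = 0.111) and *Zfp36* (allogeneic in Cy5, adjusted p = 0.0870). Without rat 8 the means of the 4 genes were 0.27, 0.28, 0.23 and -0.39 (limma adjusted p = 0.00856, 0.00366, 0.0202 and 0.0229).

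Without rat 8, 12 of these 44 genes (27.3%) were called, 6 higher and 6 lower, among them the 4 above, where 24.2% of all genes were called. In rat 8 their median was 0.74, and 16 of 44 (36.4%) were more than 1 above every other rat, beside 8.46% of all genes. *Tia1* and *Srpk2*, named here after their values were seen, were higher in all 11 other rats, as the only ones of the 44 with 1 sign there, which 8.17% of all genes had. *Tia1*, the gene of a splicing and stress granule protein, had a mean of 0.17 ± 0.09 (SD, n = 11 rats, limma adjusted p = 0.00071). *Srpk2*, the gene of a kinase of SR proteins, had 0.21 ± 0.12 (SD, n = 11 rats, limma adjusted p = 0.0011). In rat 8 these genes had 1.84 and 1.85, and over 12 rats neither was called, with means of 0.31 ± 0.49 (SD, n = 12 rats, limma adjusted p = 0.140) and 0.35 ± 0.49 (SD, n = 12 rats, limma adjusted p = 0.0948).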

How the data were processed

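RNA of 24 skin explants was measured on 24 two-color arrays, 2 per rat with the dyes exchanged. Arrays were grouped by the dye labels of the samples, and n is 12 rats. The authors deposited scanner output with mean spot intensities and local background intensities in Cy3 and Cy5, made with Feature Extraction 9.5.1.1 per the file headers. The processed intensities in the same files are background-subtracted and dye-normalized by that software. The authors also deposited a table of log2 ratios, whose background treatment is not given in the sources used here.

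With limma 3.58.1 in R 4.3.3, mean intensities were corrected by normexp (offset 50) and normalized by loess within arrays. Outlier and control spots had no weight and were left out, arrays were turned to allogeneic over syngeneic, and values were averaged over spots, over the 2 arrays and over probes to 1 per gene and rat. Genes were joined by RefSeq accession or symbol. Ratios were tested against 0 by limma, with Benjamini-Hochberg adjustment over 7221 genes or 8453 probes, and called at an adjusted p below 0.05. Levels per channel were scaled between arrays by Aquantile. The number of arrays limits the precision. The 12 pairs of explants came from separate animals.

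Named genes were the 4 leading genes, up to 15 called genes in each direction and the brightest genes of each role, and in the wider list up to 4 called genes in each direction. The other genes of the 27 are given because the rule holds them, and *Tia1* and *Srpk2* were added after their values were seen. The genes and lists were chosen with earlier results of these data known. Correlations used 100000 permutations, two-sided, of which the smallest p is 1e-05. Each array holds both explants of a rat, so that the pairing by rat is part of every ratio. Alternatives concerned the background correction, normalization, dye orientation, dim probes, outlier spots, slide, test, deposited log2 table, choice of probe and each rat left out. The mixed-effects ANOVA was computed as a t test of the rat values, its form for balanced data, and not fitted to single arrays. Leaving out array 1 of rat 10, alone or with rat 8, and correlating the 11 other rats were chosen after seeing the data. The scripts were tested on simulated data.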

Additional observations from a re-analysis of the deposited data

How the results depend on the processing

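The count of 2 called genes (1 higher and 1 lower) and 2 called probes, and of 4 called genes in the wider list, was kept within 1.5 times under no background correction, the filter on dim probes, outlier spots kept, the slide as a block and the series table. The share of all genes called was 15.2% to 18.1% under these settings. With processed signals 2 genes were higher and 0 lower, where 17.5% of all genes were called. Median centring gave 1 gene, 0 lower, 1 probe and 2 genes of the wider list, where 13.2% of all genes were called. The mixed-effects ANOVA and the rat as a random block (replicate block) each gave 1 gene, 0 lower, and 1 probe. Of all genes they called 15.3% and 18.5%. The signed-rank test gave 1 gene, 0 lower, and 8 of the wider list, where 18.6% of all genes were called. Arrays with the allogeneic sample in Cy5 alone gave 7 genes (4 higher, 3 lower), 8 probes and 8 of the wider list, where 30.2% of all genes were called, and those with it in Cy3 gave 0 higher, 2 lower and 10 of the wider list, where 28.7% were. Without array 1 of rat 10 there were 1 gene, 0 lower, and 1 probe, where 17.6% of all genes were called. Without rat 8 as well there were 2 higher, 4 probes and 15 of the wider list, where 25.7% of all genes were called.

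Leaving out 1 rat at a time gave 1 to 3 genes, 1 to 2 higher, 0 to 1 lower, 1 to 4 probes and 4 to 12 genes of the wider list, each highest without rat 8. The share of all genes called in these fits was 12.9% to 24.2%, also highest without rat 8. The means ranged from -0.10 to 0.40 for *Ccnl1*, -0.067 to 0.35 for *Clk1* and -0.30 to 0.039 for *Sfrs5*. Without rat 8 and array 1 of rat 10, *Ccnl1* was -0.082 and *Clk1* -0.032. *Sfrs5* was 0.072 and *Zfp36l2* -0.094 with allogeneic in Cy5 alone, and *Prpf19* was 0.18 with it in Cy3 alone. Without the 2 rats farthest from the median of 12, r of *Sfrs5* was -0.751 with *Ccnl1*, -0.888 with *Clk1* and -0.592 with *Rnpc2*, and without rat 8 it was -0.840, -0.870 and -0.723. The call of *Rbm3* was lost in 1 of 27 alternatives, with allogeneic in Cy3 alone (adjusted p = 0.0583), and that of *Rbm9* in 17 of 27 (highest adjusted p = 0.893). The cause of these changes was not tested.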
